A study of Mus musculus with 10 samples.

Results

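The S100 genes encode small proteins that bind calcium through a pair of EF-hand motifs, mostly work as dimers, and act both inside cells, where they bind annexins and cytoskeletal proteins, and outside them, as ligands of receptors such as RAGE and TLR4. S100A8 and S100A9 form calprotectin, the most abundant cytosolic protein of neutrophils, which is also made by monocytes and by polymorphonuclear myeloid-derived suppressor cells (PMN-MDSCs). The other members followed here are made by epithelial tumor cells and by various stromal cells, and several of them, S100A4 above all, are known for a part in the migration of breast cancer cells.

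The 10 members were taken by name from the deposited count table of 17864 genes. S100a8 and S100a9 were treated as the 2 myeloid members. The 8 others, S100a4, S100a6, S100a10, S100a11, S100a13, S100a14, S100a16 and S100a1, were treated as tumor-cell members, a name that stands for their usual source and not for cells separated in this study. All 10 passed the filter on low counts, which left 14816 genes to test.

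Whole tumors of the 4T1 line were sequenced, a mammary carcinoma line of BALB/c mice that carried Cas9 in both groups. The sgCon group held 5 tumors with a control guide RNA and the sgTaz group 5 tumors with a guide RNA that targets Wwtr1, which encodes TAZ, a transcriptional coactivator of the Hippo pathway. The methods give 1 target sequence for sgTaz and do not say whether the cells were a clone or a pool. Cells were injected into mammary fat pad 4 of female mice between 6 and 8 weeks of age, and the methods name BALB/c and the immune-deficient SCID strain as hosts without saying which carried the sequenced tumors. The comparison asks how the S100 genes differed between tumors with and without the guide against TAZ. Total counts were between 14753922 and 19595821 in the sgCon group and between 12185383 and 18395558 in the sgTaz group. CPM is the usual short name for a gene's count scaled to the TMM-normalized total of its tumor. The targeted gene, Wwtr1, had 163.1 ± 30.2 CPM (SD, n = 5) in the sgCon group and 108.1 ± 19.2 CPM (SD, n = 5) in the sgTaz group, with overlapping groups and an adjusted p of 0.096 by edgeR, 0.0149 by DESeq2 and 0.028 by limma-voom (0.0149 to 0.233 over the alternatives).

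In the sgTaz tumors all 10 members had lower mean values than in the sgCon tumors, with log2 fold changes (sgTaz over sgCon) from -1.44 for S100a8 to -0.30 for S100a10. None of the 10 passed an adjusted p of 0.05 over all genes in edgeR's quasi-likelihood test, by which 0% of the genes tested were lower and 0.00675% were called in either direction. At an unadjusted p below 0.05, all 10 were lower, against 11.9% of all genes tested. A log2 fold change below 0 was found in 53.0% of all genes. S100a13 and S100a14 were the 2 members whose groups did not overlap, a pattern that 2.13% of all genes showed in this direction. The median log2 fold change was -1.40 for the myeloid members, -0.51 for the tumor-cell members and -0.019 for all genes tested.

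The number of members called depended on the tool. DESeq2, which the methods of the study name, called 4 of 10 lower, against 3.50% of all genes it tested. These were S100a14 (DESeq2 adjusted p = 0.00021), S100a13 (0.00129), S100a4 (0.0141) and S100a16 (0.028). Limma-voom with sample quality weights called all 10 lower, with adjusted p between 0.019 and 0.0387, against 5.80% of all genes. Over the 22 alternatives fitted, the adjusted p lay between 0.00021 and 0.229 for S100a14, between 0.00129 and 0.864 for S100a13, between 0.0141 and 0.734 for S100a4 and between 0.028 and 0.247 for S100a16.

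The 10 members lie on chromosome 3 (coordinates are of mm10). Of these, 8 lie within 184.7 kb, from 90511034 to 90695721, and S100a11 and S100a10 lie 2.82 Mb further along. Wwtr1 lies on the same chromosome, 32.9 Mb away. S100a8 and S100a9 point in opposite directions, 22.6 kb apart, and S100a1 and S100a13 start 43 bases from each other on opposite strands. RefSeq promoter windows of GRCm38.p6, from 250 bases before to 50 after the start of a gene, were at hand for 8 of the 10 members, and S100a10 and S100a14 are named only. The windows of the 2 myeloid members are shown because these had the lowest log2 fold changes and moved together over the tumors, that of S100a13 because its groups did not overlap and because the window also holds the annotated start of S100a1, and that of S100a11 because it held AP-1 motifs. Capitals mark the motifs found, which are described after the sequences.
S100a8 (chr3:90668821-90669120, plus strand): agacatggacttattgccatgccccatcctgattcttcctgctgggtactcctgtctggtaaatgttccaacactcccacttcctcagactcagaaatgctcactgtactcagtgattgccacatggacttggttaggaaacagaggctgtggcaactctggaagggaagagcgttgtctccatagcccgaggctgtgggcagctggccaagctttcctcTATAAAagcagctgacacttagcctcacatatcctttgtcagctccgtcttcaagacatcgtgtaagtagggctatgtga
S100a9 (chr3:90695672-90695971, minus strand): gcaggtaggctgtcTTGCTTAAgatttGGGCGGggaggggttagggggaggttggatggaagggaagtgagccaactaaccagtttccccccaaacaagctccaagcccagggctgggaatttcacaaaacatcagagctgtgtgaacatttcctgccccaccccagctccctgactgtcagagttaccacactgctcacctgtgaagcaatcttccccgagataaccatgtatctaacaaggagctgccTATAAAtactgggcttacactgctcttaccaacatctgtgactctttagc
S100a13 (chr3:90514185-90514484, plus strand): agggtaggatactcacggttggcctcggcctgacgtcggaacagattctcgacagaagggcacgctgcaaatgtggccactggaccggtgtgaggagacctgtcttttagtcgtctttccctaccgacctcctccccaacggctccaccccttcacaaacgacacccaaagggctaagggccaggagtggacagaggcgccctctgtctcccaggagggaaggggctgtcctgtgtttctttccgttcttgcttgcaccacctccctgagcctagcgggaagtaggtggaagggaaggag
S100a11 (chr3:93520246-93520545, plus strand): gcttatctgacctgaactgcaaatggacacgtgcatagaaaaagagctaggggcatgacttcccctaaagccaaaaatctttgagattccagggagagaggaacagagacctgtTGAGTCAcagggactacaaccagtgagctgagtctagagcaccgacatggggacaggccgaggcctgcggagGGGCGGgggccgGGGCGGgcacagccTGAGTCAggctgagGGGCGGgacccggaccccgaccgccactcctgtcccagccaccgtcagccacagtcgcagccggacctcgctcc

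Each of 5 motifs was searched on both strands, and a match describes letters, not a bound factor. Positions are counted from the RefSeq start of the window. For S100a8, S100a11, S100a6 and S100a1 that start lies downstream of the first base of the gene given in this report, which is of GENCODE. The TEAD motif CATTCC, the site of the factors through which TAZ acts on DNA, was in none of the windows of the 8 members and in 14.7% of all 32851 windows. The AP-1 motif TGANTCA, present in 7.81% of all windows, began 136 and 38 bases before the start of S100a11 and 192 bases before the second annotated start of S100a16. The C/EBP motif TTNNGCAA, present in 10.8% of all windows and known as a site of factors of granulocyte development, began 236 bases before the start of S100a9 and was not in the window of S100a8. A TATA motif, TATAAA, present in 13.6% of all windows, began 30 bases before the start of S100a8, 31 bases before that of S100a4 and at the annotated start of S100a9. The GC box GGGCGG, present in 35.7% of all windows, was found 3 times in the window of S100a11, at 64, 52 and 24 bases before the start, and in the windows of S100a9 and of the second start of S100a16. The window of S100a13 held none of the 5 motifs.

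S100a8 (ENSMUSG00000056054.9, chromosome 3 from 90668978 to 90670035, plus strand) encodes the calprotectin subunit S100A8. From replicate 1 to 5, the sgCon tumors had 114.2, 241.6, 50.4, 65.83 and 102.0 CPM and the sgTaz tumors 17.76, 28.61, 44.47, 45.4 and 76.03 CPM. The sgTaz tumors 1 to 4 lay below every sgCon tumor, while sgTaz tumor 5 lay above the sgCon tumors 3 and 4. The means were 114.8 ± 75.5 and 42.5 ± 22.03 CPM (SD, n = 5), a log2 fold change of -1.44 (standard error 0.45, edgeR adjusted p = 0.124). An exact two-sided permutation test of the 10 tumors gave p = 0.0397, where the smallest p that 5 against 5 tumors allow is 0.00794. Without the highest sgCon tumor, replicate 2, the log2 fold change was -0.97 (edgeR adjusted p = 0.184).

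S100a9 (ENSMUSG00000056071.12, chromosome 3 from 90692632 to 90695721, minus strand) encodes the partner subunit. Its values in the sgCon tumors were 157.0, 356.2, 77.79, 114.7 and 189.7 CPM, and in the sgTaz tumors 23.61, 48.76, 79.08, 72.51 and 122.6 CPM. The tumors took nearly the same order as for S100a8, with sgCon 2 highest and sgTaz 1 lowest, and the groups overlapped through sgCon 3 and 4 and sgTaz 3 and 5. The log2 fold change was -1.37 (standard error 0.45, edgeR adjusted p = 0.134, exact permutation p = 0.0397), and -0.96 without sgCon 2. As in any bulk sample, fewer cells of a type and less RNA per cell cannot be told apart.

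The proportion of the subunits differed little between the groups. Log2 CPM of S100a8 minus that of S100a9 was -0.67 ± 0.18 in the sgCon group and -0.67 ± 0.16 in the sgTaz group (SD, n = 5), with single tumors from -0.90 to -0.41. The difference between the groups was -0.0055 (exact two-sided permutation p = 0.96), far smaller than the spread within either group. Over the 10 tumors, after the group means were taken off, the pair had a Pearson r of 0.980 (exact permutation p = 0.000278, adjusted p = 0.0125 over 45 pairs of members) and a Spearman rho of 0.939 (adjusted p = 0.0203). Without the 2 tumors farthest from the median, r was 0.966.

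**Figure D1:**
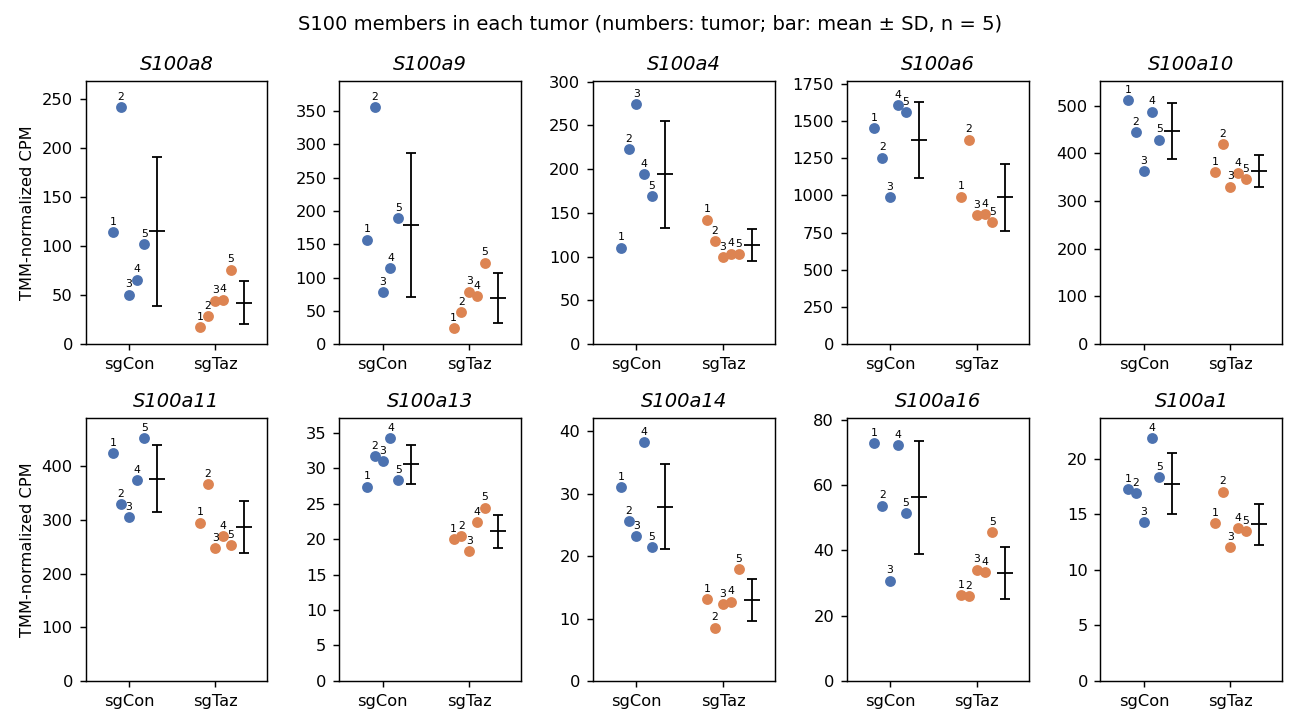
Level of each of the 10 members in each tumor, in TMM-normalized CPM on axes that start at 0, with blue points for sgCon, orange points for sgTaz, the tumor number above each point and a bar for the mean ± SD (n = 5). S100a13 and S100a14 show no overlap of the groups, S100a8 and S100a9 show a wide sgCon spread set by tumor 2, and in S100a6, S100a10, S100a11 and S100a1 sgTaz tumor 2 sits among the sgCon tumors.

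Among the tumor-cell members, S100a14 had the lowest log2 fold change. S100a14 (ENSMUSG00000042306.11, chromosome 3 from 90526856 to 90528837, plus strand) is expressed in epithelia, and its product is a ligand of RAGE. The sgCon tumors had 31.05, 25.58, 23.2, 38.3 and 21.43 CPM and the sgTaz tumors 13.17, 8.524, 12.32, 12.71 and 17.97 CPM. All 5 sgTaz tumors were below all 5 sgCon tumors, so that the exact permutation p was the smallest possible, 0.00794. The means were 27.9 ± 6.84 and 12.9 ± 3.37 CPM (SD, n = 5), a log2 fold change of -1.11 (standard error 0.21, edgeR adjusted p = 0.0824).

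S100a13 (ENSMUSG00000042312.9, chromosome 3 from 90514435 to 90524581, plus strand) acts in the export of FGF1 and interleukin-1 alpha, proteins that leave cells without a signal peptide. It had 27.44, 31.68, 31.06, 34.25 and 28.35 CPM in the sgCon group and 19.99, 20.41, 18.27, 22.42 and 24.45 CPM in the sgTaz group. Here, too, no sgTaz tumor reached the lowest sgCon tumor (exact permutation p = 0.00794), and the spread within both groups was narrow. The log2 fold change was -0.54 (standard error 0.10, edgeR adjusted p = 0.0824). S100a1 (ENSMUSG00000044080.9, chromosome 3 from 90511034 to 90514392, minus strand), the neighbor that starts beside S100a13 and is best known from heart muscle, had 17.29, 16.92, 14.28, 21.87 and 18.35 CPM in the sgCon group and 14.19, 17.05, 12.05, 13.76 and 13.46 CPM in the sgTaz group. The groups of S100a1 overlapped through sgTaz 2, and its log2 fold change was -0.33 (standard error 0.13, edgeR adjusted p = 0.189). Within groups the values of S100a13 and S100a1 showed little relation (Pearson r = 0.230, exact permutation p = 0.53; Spearman rho = 0.030, exact permutation p = 0.946; r without the 2 tumors farthest from the median, -0.607).

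S100a4 (ENSMUSG00000001020.8, chromosome 3 from 90603771 to 90606045, plus strand) encodes a protein that binds nonmuscle myosin and is known as a marker of fibroblasts and of metastatic cells. Its values were 110.3, 223.1, 274.7, 194.3 and 169.4 CPM in the sgCon group and 142.4, 118.2, 99.49, 103.6 and 103.0 CPM in the sgTaz group. All sgCon tumors but replicate 1, 4 of 5, were above every sgTaz tumor, and sgCon 1 lay within the sgTaz range. The log2 fold change was -0.78 (standard error 0.20, edgeR adjusted p = 0.0983, exact permutation p = 0.0238). The value is uncertain because 302 of the 584 exon bases of S100a4 are shared with Gm42674, a transcript on the same strand, and how the counting treated reads in them is not stated. S100a16 (ENSMUSG00000074457.10, chromosome 3 from 90537254 to 90543151, plus strand), a widely expressed member, had 72.84, 53.66, 30.69, 72.16 and 51.43 CPM in the sgCon group and 26.35, 25.9, 34.07, 33.34 and 45.47 CPM in the sgTaz group. Only sgCon 3 lay within the sgTaz range, and the log2 fold change was -0.77 (standard error 0.23, edgeR adjusted p = 0.114, exact permutation p = 0.0317).

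The 3 most abundant members per exon length, S100a6, S100a11 and S100a10, had smaller differences. S100a6 (ENSMUSG00000001025.8, chromosome 3 from 90612882 to 90624181, plus strand), the gene of calcyclin, had 1451, 1255, 989.8, 1609 and 1558 CPM in the sgCon group and 992.8, 1376, 868.5, 876.5 and 818.5 CPM in the sgTaz group. Its log2 fold change was -0.48 (standard error 0.17, edgeR adjusted p = 0.150, exact permutation p = 0.0397). S100a11 (ENSMUSG00000027907.4, chromosome 3 from 93520488 to 93526287, plus strand), whose product binds annexin A1, had 425.2, 329.2, 305.5, 374.5 and 452.1 CPM in the sgCon group and 295.1, 366.3, 247.4, 270.1 and 252.6 CPM in the sgTaz group. Its log2 fold change was -0.40 (standard error 0.14, edgeR adjusted p = 0.141, exact permutation p = 0.0317). In both genes sgTaz 2 was the highest sgTaz tumor and lay above the sgCon tumors 2 and 3.

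S100a10 (ENSMUSG00000041959.14, chromosome 3 from 93555080 to 93564643, plus strand) encodes p11, a member that has lost calcium binding and forms a tetramer with annexin A2 that holds plasminogen and its activators at the cell surface. It had 511.1, 444.6, 362.0, 487.2 and 428.7 CPM in the sgCon group and 360.1, 419.6, 330.1, 358.9 and 346.3 CPM in the sgTaz group. All sgTaz tumors but replicate 2, 4 of 5, were below every sgCon tumor, and the log2 fold change was -0.30 (standard error 0.10, edgeR adjusted p = 0.139, exact permutation p = 0.0159). For Anxa2, its partner, the log2 fold change was -0.21 (standard error 0.097, edgeR adjusted p = 0.241). Log2 CPM of S100a10 minus that of Anxa2 was -1.24 ± 0.085 in the sgCon group and -1.32 ± 0.071 in the sgTaz group (SD, n = 5), a difference of -0.084 that did not pass an exact two-sided permutation test (p = 0.151). It passed without sgCon 3 (-0.12) and without sgTaz 5 (-0.11), with an exact permutation p of 0.0397 each.

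Levels of different members were compared per length, as CPM per kilobase of exon. In sgCon tumors S100a6 was highest, at 1004 ± 185 (SD, n = 5), followed by S100a11 at 738 ± 121. S100a10 (369), S100a9 (343) and S100a4 (333) came next with overlapping ranges, then S100a8 (165). S100a13 (42.7), S100a16 (34.7), S100a1 (25.6) and S100a14 (16.2) formed the low end. Among neighbors in this order, the ranges of the 5 tumors were apart only between S100a11 and S100a10 and between S100a8 and S100a13. In sgTaz tumors the order was S100a6 (722), S100a11 (560), S100a10 (299), S100a4 (194), S100a9 (133), S100a8 (61.2), S100a13 (29.5), S100a16 (20.4), S100a1 (20.3) and S100a14 (7.49), with S100a9 and S100a4, whose ranges overlapped in both groups, in exchanged places. There the ranges were apart between S100a11 and S100a10, between S100a10 and S100a4, and between S100a1 and S100a14. Together the 10 members took between 0.213% and 0.304% of the counts of an sgCon tumor and between 0.177% and 0.239% of those of an sgTaz tumor.

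**Figure D2:**
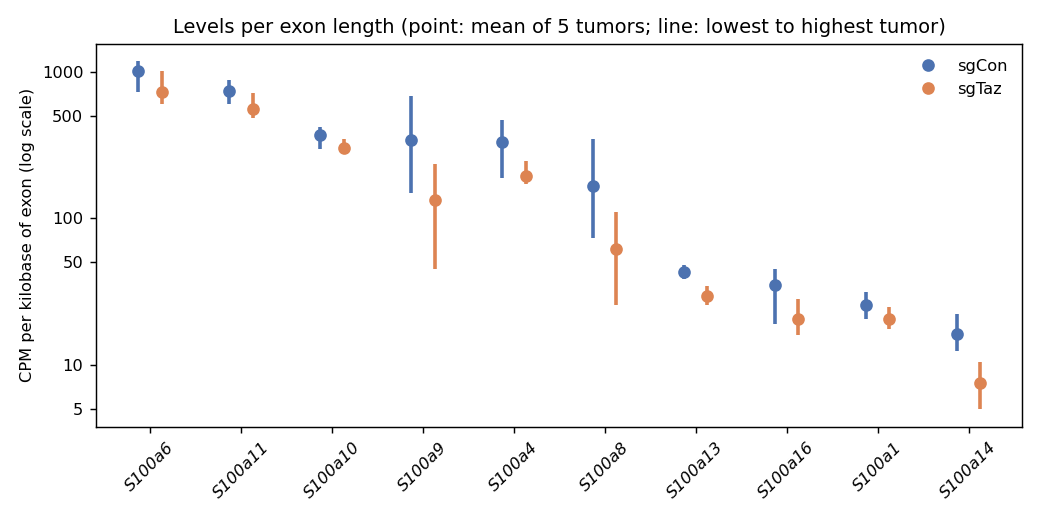
Mean level of each member per exon length (CPM per kilobase of exon, log axis) in sgCon (blue) and sgTaz (orange) tumors, with lines from the lowest to the highest of the 5 tumors. S100a6 and S100a11 are the highest members in both groups and S100a14 the lowest, and the lines of S100a8 and S100a9 are the longest.

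Single tumors stood out across members. Tumor 3 was the lowest of the sgCon group in 7 of the 10 members, although it was the highest in S100a4. Its tissue markers also stood out. It had the highest sgCon sums for lymph node stroma (559.1 CPM), B cells (771.1) and T cells (603.3). For markers of epithelial tumor cells (2157), neutrophils (621.6) and fibroblasts (1502) its sums were the lowest of the sgCon group. The part of this make-up in its member values was not tested. In the sgTaz group tumor 5 was the highest in 5 members, among them S100a8, S100a9 and S100a14, tumor 2 was the highest in 4, and tumor 3 was the lowest in 5. When each tumor was left out in turn, edgeR called 0 of the 10 members except without sgTaz 5, when S100a13 and S100a14 were called lower (adjusted p = 0.041 for each). In that fit 130 of 14974 genes, 0.868%, were called lower, against 0 of 14816 with all tumors. Without both sgTaz 5, the highest of its group in the score of lymph node stroma (mean log2 CPM 4.99, the other sgTaz tumors at most -0.73), and sgCon 2, the highest of all tumors in that of neutrophils (4.59, the next at 3.87), 0 members were called and 9 of 10 were lower at an unadjusted p below 0.05. In that fit 19.1% of 14769 genes passed this threshold in either direction, 1629 of them lower and 1195 higher.

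All 10 members are short genes, with exon lengths from 511 to 1727 bases, and fold changes in these data moved with gene length. Among the 553 genes tested with up to 1000 exon bases, the length of 6 members, the median log2 fold change was -0.22, and 25.3% were lower and 2.53% higher at an unadjusted p below 0.05. Of these 553 genes, 50 are immunoglobulin segments. Among the 1777 genes of 1000 to 2000 bases, the length of the other 4 members, the median was -0.13, with 18.1% lower and 3.6% higher. Above 8000 bases the median was 0.068. Each of the 10 members had a log2 fold change below the median of its own length range.

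**Figure D3:**
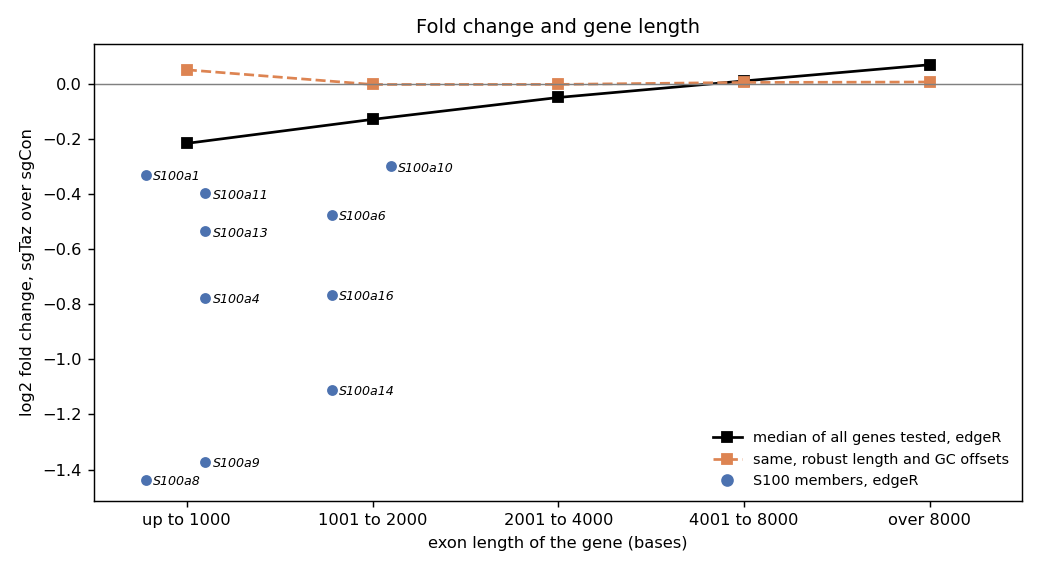
Log2 fold change, sgTaz over sgCon, by exon length of the gene in bases, with black squares for the median of all genes tested in each length range, orange squares for the same with robust offsets for length and GC content, and blue points for the members, which are set side by side within their range for legibility. The black medians run from -0.22 in the shortest to 0.068 in the longest range, and all 10 members lie below the median of their range.

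The members differed in how far their values depended on this trend. When edgeR was given an offset for each gene and tumor from a robust smooth fit on exon length and GC content, an alternative chosen after seeing the data, all 10 members kept a log2 fold change below 0, with a median of -0.39, and 6 of 10 had an unadjusted p below 0.05, against 10.2% of all genes lower at that threshold. S100a14 had a log2 fold change of -0.99 under these offsets (edgeR adjusted p = 0.109), S100a16 of -0.62 (adjusted p = 0.186), S100a8 of -1.21 (adjusted p = 0.174) and S100a9 of -1.07 (adjusted p = 0.210). S100a4 had -0.44, S100a6 -0.34, S100a13 -0.23 and S100a10 -0.14, and S100a11 (-0.053) and S100a1 (-0.029) lay near 0. With a least-squares fit in place of the robust one, which left the shortest genes at a median of 0.25, S100a11 (0.26) and S100a1 (0.17) changed sign, S100a8 had -1.04, S100a9 -0.84, S100a14 -0.97, S100a16 -0.60, S100a4 -0.15 and S100a13 -0.045, 8 of 10 members stayed below 0 and 4 of 10 had an unadjusted p below 0.05, against 7.78% of all genes. No member passed an adjusted p of 0.05 by edgeR under either set of offsets.

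**Figure D4:**
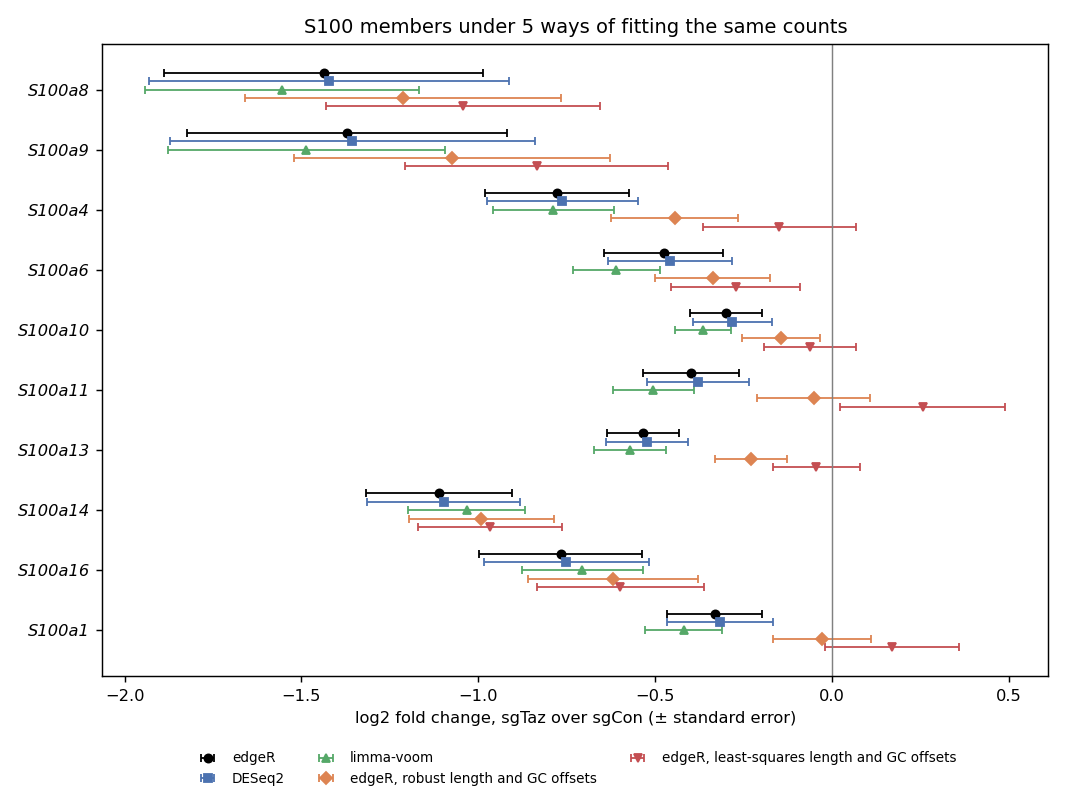
Log2 fold change of each member, sgTaz over sgCon, with its standard error, from edgeR (black), DESeq2 (blue), limma-voom (green) and edgeR with robust (orange) or least-squares (red) offsets for exon length and GC content, all fitted to the same counts of 5 against 5 tumors. S100a8, S100a9, S100a14 and S100a16 stay left of 0 in all 5 fits, while S100a11 and S100a1 lie near or above 0 with offsets.

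Markers of neutrophils and PMN-MDSCs moved with the myeloid members. Of 20 tested markers of neutrophils and PMN-MDSCs, 18 had a log2 fold change below 0, against 53.0% of all genes, with a median of -0.83. At an unadjusted p below 0.05 by edgeR, 9 were lower, against 11.9% of all genes, and 1 was higher, against 9.86%, with 0 called after adjustment. The summed level of the list was between 622 and 1835 CPM in the sgCon group and between 666 and 1418 CPM in the sgTaz group, and none of its genes was at 0 counts in any tumor. Over the 10 tumors, with group means taken off, S100a8 followed the mean log2 CPM of this list with a Pearson r of 0.995 (exact permutation p = 6.94e-05, the smallest possible, adjusted p = 0.00416 over 60 relations) and a Spearman rho of 1.0 (adjusted p = 0.00416), and r was 0.988 without the 2 tumors farthest from the median. For S100a9, r was 0.974 (exact permutation p = 0.000278, adjusted p = 0.00834) and rho 0.939 (adjusted p = 0.0181), with an r of 0.934 without the 2 farthest tumors. How far the neutrophil markers account for the group difference of S100a8 and S100a9 was not tested.

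A further pair of relations, 4 of 60 in all, had an adjusted p below 0.05. S100a9 followed the fibroblast score (Pearson r = 0.885, exact permutation p = 0.00125, adjusted p = 0.025; Spearman rho = 0.794, adjusted p = 0.13; r = 0.703 without the 2 farthest tumors), as S100a8 did with an r of 0.838 that missed the threshold (exact permutation p = 0.00556, adjusted p = 0.0667). S100a6 ran against the score of monocytes and M-MDSCs, the monocytic suppressor cells (Pearson r = -0.857, adjusted p = 0.0364; Spearman rho = -0.903, adjusted p = 0.0167; r = -0.787 without the 2 farthest tumors, exact permutation tests). With the median over the genes of a list in place of the mean, 2 of the 60 relations passed.

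Of the tumor-cell members, S100a14 showed no relation with the epithelial markers that passed the test within groups (Pearson r = -0.195, exact permutation p = 0.604, adjusted p = 0.79; Spearman rho = -0.055, adjusted p = 0.925). In sgTaz 2, S100a14 was at its lowest level while the epithelial markers summed to 4064 CPM, the highest of that group. All 10 epithelial markers had a log2 fold change below 0, against 53.0% of all genes, with a median of -0.47. Of these, 4 were lower at an unadjusted p below 0.05 by edgeR, against 11.9% of all genes, and 0 were called, and their summed level was between 2157 and 5171 CPM in the sgCon group and between 1654 and 4064 CPM in the sgTaz group. S100a6, S100a10 and S100a11 had Pearson r of 0.740, 0.769 and 0.759 with the epithelial score, which did not pass the adjusted threshold (exact permutation tests, adjusted p from 0.153 to 0.168). S100a4 ran the other way, with an r of -0.662 (exact permutation test, adjusted p = 0.168) and of -0.306 without the 2 farthest tumors. The r was -0.233 for S100a13, 0.397 for S100a16 and 0.565 for S100a1, none of which passed. With the fibroblast score, S100a4 had an r of -0.625 (exact permutation test, adjusted p = 0.256), and -0.1 without the 2 farthest tumors. The part of the epithelial markers in the differences of the members was not tested.

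**Figure D5:**
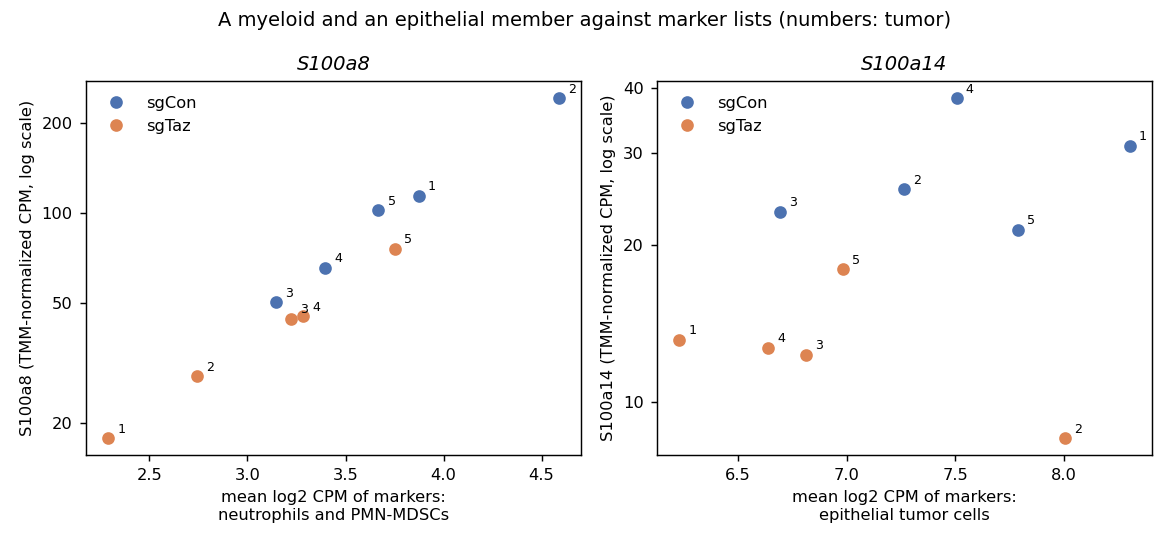
S100a8 against the mean log2 CPM of markers of neutrophils and PMN-MDSCs, and S100a14 against that of markers of epithelial tumor cells, with 1 numbered point for each sgCon (blue) and sgTaz (orange) tumor and a log axis for CPM. S100a8 rises with its score within each group, from 50.4 to 241.6 CPM in the sgCon group and from 17.76 to 76.03 CPM in the sgTaz group. The S100a14 values of the sgTaz tumors, between 8.524 and 17.97 CPM, lie below those of all sgCon tumors across the range of epithelial scores.

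The other marker lists describe the tissue in which the members were measured. All 11 macrophage markers had a log2 fold change above 0, against 6961 of all 14816 genes tested. At an unadjusted p below 0.05 by edgeR, 5 of them were higher, against 9.86% of all genes, and 0 were lower. After adjustment 0 were called. Macrophage markers summed to between 1940 and 4470 CPM in the sgCon group and between 3470 and 4580 CPM in the sgTaz group. Monocyte markers summed to between 384 and 728 against 256 and 619 CPM, and fibroblast markers to between 1500 and 4650 against 1690 and 4640 CPM. Endothelial markers summed to between 341 and 445 against 276 and 568 CPM, and keratinocyte markers to between 121 and 178 against 31.6 and 122 CPM. Of the 6 listed keratinocyte markers, 4 were in the deposited counts, without Krt1 and Ivl. Krt14 had the highest level, at means of 136.4 against 61.45 CPM. Krt5 had 13.68 against 3.585 CPM and Krt10 3.489 against 3.256 CPM, and Lor had between 0 and 18 counts. The cells that express Krt14 here were not tested. Markers of lymph node stroma and follicles summed to between 32.4 and 559 CPM in the sgCon group and between 0.323 and 324 CPM in the sgTaz group, with Cr2, Ccl19, Fcer2a, Madcam1 and Glycam1 at 0 counts in some tumor. The upper end of the sgCon range was sgCon 3, with the next sgCon tumor at 187.7 CPM. The upper end of the sgTaz range was sgTaz 5 alone, which was also highest of its group in S100a8, S100a9 and S100a14. The other 4 sgTaz tumors had at most 4.61 CPM. B cell markers summed to between 62.5 and 771 against 7.36 and 165 CPM, again with sgTaz 5 highest and the other 4 sgTaz tumors at 19.9 CPM or less, T cell markers to between 97.6 and 603 against 76.8 and 194 CPM, adipocyte markers to between 4.68 and 35.8 against 2.61 and 104 CPM, and skeletal muscle markers to between 7.88 and 44.7 against 6.59 and 31.6 CPM. S100a8 showed an r of 0.421 with the lymph node stroma score (exact permutation p = 0.244), and the part of these lists in the differences of the members was not tested.

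Within groups, only some of the tumor-cell members varied together. Of 45 pairs of members, 26 had a Pearson r above 0, the median r was 0.0819 and the range was from -0.732 to 0.980. Besides S100a8 with S100a9, 2 pairs had an adjusted p below 0.05 by exact permutation tests, namely S100a6 with S100a11 (r = 0.902, adjusted p = 0.0323; rho = 0.867, adjusted p = 0.0406; r = 0.951 without the 2 farthest tumors) and S100a6 with S100a1 (r = 0.894, adjusted p = 0.0172; rho = 0.952, adjusted p = 0.00625; r = 0.914 without them). S100a14 with S100a16 (r = 0.737, adjusted p = 0.13) did not pass. S100a4 had its lowest r with S100a16 (r = -0.732, adjusted p = 0.22 by an exact permutation test), although both were lower in the sgTaz group.

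Genes with the most similar pattern were looked up for 4 members, as Pearson r over the 10 tumors with group means taken off and with no test. For S100a8 these were S100a9 (0.980), 6430548M08Rik (0.971), Csf3r (0.954), which encodes the receptor of the granulocyte growth factor G-CSF, Mmp8 (0.943), which encodes neutrophil collagenase, and Apol7d (0.941). For S100a9 they were S100a8, Apol7d (0.969), Rhov (0.964), 6430548M08Rik (0.961) and Gm5483 (0.958). For S100a14 they were Abcc4 (0.918), Sardh (0.912), Ptges2 (0.906), Rpl26 (0.896) and Nmral1 (0.892), with no keratin or claudin of the epithelial list among them. For S100a4 they were Ankrd9 (0.971), Otop1 (0.968), Lat2 (0.959), Tmem189 (0.949) and Slc25a33 (0.946).

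The other S100 genes of the mouse were low. S100a7a, the mouse psoriasin gene, had between 34 and 97 counts in each tumor, with a log2 fold change of -0.24 (standard error 0.25, edgeR adjusted p = 0.606). S100a3 had between 1 and 19 counts, below the filter of edgeR, and DESeq2 gave a log2 fold change of -1.76 (adjusted p = 0.0488), with 144 of its exon bases shared with Gm42674. S100b, the astrocyte and Schwann cell member, had between 1 and 6 counts, and S100g, the intestinal calbindin, between 0 and 1.

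Partners and receptors of the S100 proteins had fold changes on both sides of 0. Of 25 listed genes, 23 passed the filter, 12 with a log2 fold change below 0 and 11 above, with a median of -0.038. None was called by edgeR after adjustment, and at an unadjusted p below 0.05 there were 2 lower, against 11.9% of all genes, and 5 higher, against 9.86%. DESeq2 called 1 lower and 3 higher, against 3.50% of all genes lower and 3.38% higher. The lower gene was Ager (DESeq2 adjusted p = 0.0213), and the higher genes were Plat (0.00261), Fgf1 (0.0126) and Tlr4 (0.0491). Limma-voom called 3 lower and 2 higher, against 5.80% lower and 4.63% higher. The 11 annexins and intracellular binding proteins, among them Anxa2, Cacybp, which binds S100A6, and Myh9, the myosin bound by S100A4, held none at an unadjusted p below 0.05, and their log2 fold changes were between -0.35, for Anxa1, and 0.083, for Anxa11.

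Among receptors, Ager, the gene of RAGE, had between 2.002 and 4.18 CPM in the sgCon group and between 0.971 and 1.89 CPM in the sgTaz group. The groups did not overlap, as for 2.13% of all genes in this direction. The log2 fold change of Ager was -1.08 (standard error 0.28, edgeR adjusted p = 0.096, exact permutation p = 0.00794), at 12 to 67 counts per tumor. Tlr4 (log2 fold change 0.47, edgeR adjusted p = 0.129) and Ly96 (0.48, adjusted p = 0.184), which encodes the TLR4 adaptor MD-2, had higher mean values in the sgTaz group, as did Cd36 (0.88, adjusted p = 0.199). Cd14 (-0.19, adjusted p = 0.520), Myd88 (0.093, adjusted p = 0.671) and Bsg (-0.22, adjusted p = 0.264) differed less.

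Of the plasminogen system that S100A10 binds, Plat, the gene of tissue plasminogen activator, had between 34.7 and 53.0 CPM in the sgCon group and between 60.5 and 83.8 CPM in the sgTaz group. The groups did not overlap, as for 2.44% of all genes in this direction, and the log2 fold change was 0.62 (standard error 0.13, edgeR adjusted p = 0.0896, exact permutation p = 0.00794). Plaur, the urokinase receptor gene, had -0.28 (edgeR adjusted p = 0.206) and Plau -0.28 (adjusted p = 0.449). Of the genes listed for S100A13 export, the log2 fold change was 1.02 for Fgf1 (standard error 0.27, edgeR adjusted p = 0.0999) and -0.60 for Il1a (standard error 0.37, adjusted p = 0.364). Syt1, the other gene of that list, had 0 to 16 counts and was below the filter.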

How the data were processed

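RNA of 10 whole tumors was sequenced on an Illumina HiSeq 2000. The authors aligned reads to mm10 (GRCm38) with the 2-pass mode of STAR and GENCODE annotation, ran RSeQC, counted reads per gene with featureCounts of Subread and deposited raw counts without normalization. Tool versions, strand setting and the rule for listing a gene are not given in the sources used here. The table holds 5 further columns, not used here. Groups follow the sample labels. The labels number the tumors but do not state separate animals, so p-values measure the spread between these tumors. That spread exceeded counting error in each pair of tumors within a group (chi-square per gene from 6.49 to 73.2). Same-numbered tumors did not deviate together, so no pairing was used.

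Identifiers were matched without version to GENCODE M21, 17860 of 17864. Counts were tested on all genes with edgeR 4.0.16 in R 4.3.3 (TMM, filterByExpr, quasi-likelihood, Benjamini-Hochberg threshold 0.05). Alternatives were DESeq2 1.42.0, limma-voom 3.58.1, other scalings and filters, a replicate block, offsets for length and GC content, and each tumor left out. Log2 CPM used a prior count of 2. Permutation tests in Python 3.11.15 (scipy 1.17.1) were two-sided and enumerated 252 arrangements of the tumors, or 14400 permutations within groups for relations. Scripts were tested on simulated data. In these libraries 3 counts are between 1.53e-05% and 2.46e-05% of the total, for counting error only. Members, lists and tests were chosen with earlier results of these data known. Named genes were the members, other S100 genes, listed partners and markers, and the 5 genes most like each of S100a8, S100a9, S100a14 and S100a4 among those with a mean of at least 1 CPM. Promoter windows were those of RefSeq for GRCm38.p6.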

Additional observations from a re-analysis of the deposited data

How the results depend on the processing

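The count of members called was 0 in the edgeR fit, 4 with DESeq2 and 10 with limma-voom, all lower in sgTaz tumors, and between 0 and 2 when each tumor was left out, with 2 only without sgTaz 5. RLE and upper-quartile scaling, no filter, a minimum of 10 counts in every tumor and the length and GC offsets also gave 0. For the partner and receptor genes the count was 0 in the edgeR fit, 4 with DESeq2, 5 with limma-voom and between 0 and 1 with a tumor left out, Fgf1 being called without sgCon 4. The difference of S100a8 and S100a9 within a tumor, -0.0055, took values between -0.072 and 0.047 with a tumor left out, all far inside its spread. The difference of S100a10 and Anxa2 lay between -0.12 and -0.055 then, and passed the threshold without sgCon 3 (-0.12) and without sgTaz 5 (-0.11), with an exact permutation p of 0.0397 each. S100a11 changed sign with least-squares offsets for length and GC content (0.26) or length alone (0.25), as did S100a1 (0.17 and 0.13). Of 60 relations with marker scores, 4 passed with mean scores and 2 with median scores.

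Same-numbered tumors of the 2 groups were not related, with correlations of their deviations from -0.243 to 0.221, and 1 of 5 tumors correlated best with its own number. With a replicate block, edgeR called 0 members and 0 partner genes (members: median log2 fold change -0.64, adjusted p from 0.154 to 0.292). The cause of the difference between edgeR, DESeq2 and limma-voom was not tested. The 5 tumors of each group limit the exact tests to a p of 0.00794, and counts of S100a3, S100b, S100g and Ager were too few for small differences to be detectable.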
